A study of Mus musculus with 11 samples.

Results

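The 9 genes described here encode the proteins that turn light into an electrical signal in cone photoreceptors: the opsins Opn1sw and Opn1mw, the G protein subunits Gnat2 and Gngt2, the phosphodiesterase subunits Pde6c and Pde6h, the channel subunits Cnga3 and Cngb3, and the arrestin Arr3. They were chosen by name, 9 of the 47069 genes in the count files, and each name matched 1 Ensembl ID. All 9 were among the 18188 genes tested, but Opn1mw passed the filter on low counts only through P8 libraries, where it is high. Between postnatal days 4 and 8 (P4 and P8), Arr3 was called higher in the retina of Brn3b-Kir2.1 mice, as was Opn1mw at 1 count against 34, a call that its filter favours. These are 2 of the 9, beside 7.93% of all genes called higher, and neither stayed called when any one of the P4 replicates or P8 replicate 2 was left out. None of the 9 was called different between Brn3b-Kir2.1 and wild-type retina at either age, where 0% of all genes were.

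In a cone, light activates an opsin, which activates the cone transducin. Transducin relieves the inhibition of a phosphodiesterase that breaks down cyclic GMP, and cyclic GMP-gated channels in the outer segment then close. Arrestin binds the activated opsin and ends the response. Most mouse cones can make both the short-wavelength opsin (Opn1sw) and the medium-wavelength opsin (Opn1mw), in amounts that differ between the ventral and dorsal retina, and the short-wavelength opsin appears earlier in development. Cones are born before birth in the mouse and are far fewer than rods.

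The promoters of 3 members are shown because Opn1mw and Arr3 were the members called higher at P8, and Opn1sw is the opsin whose level Opn1mw is set against. Each is the 250 bases upstream of the transcription start in RefSeq (GRCm38.p6), 5′ to 3′ on the gene's strand, and capitals mark AGGTCA, a half-site read by nuclear receptors such as the thyroid hormone receptor, or TAATC, the core of sites read by the photoreceptor factors Crx and Otx2, on either strand (TGACCT and GATTA in reverse). The windows are chr6:29380514-29380763 on the minus strand for Opn1sw, chrX:74127216-74127465 on the plus strand for Opn1mw and chrX:100605247-100605496 on the plus strand for Arr3.
Opn1sw: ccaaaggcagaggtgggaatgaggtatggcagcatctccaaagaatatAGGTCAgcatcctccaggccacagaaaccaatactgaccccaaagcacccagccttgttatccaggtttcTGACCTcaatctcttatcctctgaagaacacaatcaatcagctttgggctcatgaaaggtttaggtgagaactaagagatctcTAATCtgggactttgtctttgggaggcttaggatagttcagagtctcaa
Opn1mw: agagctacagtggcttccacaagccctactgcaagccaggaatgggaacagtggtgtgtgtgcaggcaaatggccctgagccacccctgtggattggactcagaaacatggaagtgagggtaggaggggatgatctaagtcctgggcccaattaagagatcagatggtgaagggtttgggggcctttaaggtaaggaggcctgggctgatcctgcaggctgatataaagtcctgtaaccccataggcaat
Arr3: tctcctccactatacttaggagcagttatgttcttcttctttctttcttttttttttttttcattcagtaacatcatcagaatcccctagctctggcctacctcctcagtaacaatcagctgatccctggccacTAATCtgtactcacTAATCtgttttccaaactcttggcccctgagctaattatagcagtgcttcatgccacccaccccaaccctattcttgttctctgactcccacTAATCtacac
Opn1sw held AGGTCA at 202 and 132 bases before the start and TAATC at 49. Arr3 held TAATC at 116, 102 and 10 bases before the start, and Opn1mw held neither sequence in this window. Of 32851 RefSeq promoters of the same length, 19.8% held TAATC at least once and 0.55% at least 3 times, and 14.0% held AGGTCA at least once and 1.36% at least 2 times. Of the 6 members with an entry, 3 held TAATC (Opn1sw, Gnat2 and Arr3) and 1 held AGGTCA (Opn1sw). All 5 rod counterparts with an entry held TAATC, and 2 held AGGTCA. All 250 bases of the windows of Gnat2 and of the rod gene Cnga1, and 216 of those of the rod gene Gngt1, are annotated exon of the gene itself. Pde6c, Gngt2 and Cngb3 were not among the entries. The shorter form TAATC was chosen for display after the sequences had been read. The longer TAATCC, which contains it, was found in 1 of the 6 members (Gnat2), in 4 of the 5 rod counterparts and in 6.3% of all promoters. A match is a description of the letters only.

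RNA-seq was performed on dissociated C57BL/6 mouse retina in 4 groups: wild type at P4 (2 libraries) and at P8 (3 libraries), and Brn3b-Kir2.1 at P4 and at P8 (3 libraries each). Brn3b-Kir2.1 mice combine Brn3b-cre with a transgene in which a CAG promoter and a floxed STOP cassette precede the human cDNA of Kir2.1, a potassium channel of the inward rectifier family, joined to eYFP. Cre from this driver is active in retinal ganglion cells, so cones are not the cells the transgene is aimed at. By its title the study asked whether correlated activity of the retina around birth is needed to wire visual axons. The labels conflict on 3 points. The later age is day 8 in the age field and day 11 in the protocol for extraction; the genotype field calls the controls wild type and the protocol calls them Brn3b-cre mice; and the source field names ganglion cells where the protocol describes whole retina and no sorting. The field values are used here for age and genotype, and the protocol for the tissue. Nothing states whether retinas were pooled or whether replicates came from separate animals, so p-values measure the spread between libraries, which may be technical. Because whole retina was sequenced, fewer cones and less RNA per cone cannot be told apart.

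Counts in genes ranged from 9362215 to 12478838 per library. Replicates differed by more than sampling noise, and no library was a copy of another. In a principal component analysis of all genes, P8 libraries scored 37.8 to 54.0 on component 1 (41.6% of the variance) and P4 libraries -74.6 to -55.4, except for wild-type P4 replicate 2 at -16.4. Component 2 (15.3%) spread the wild-type P8 replicates over 74.6, 28.4 and -39.7, while the Brn3b-Kir2.1 libraries of that age scored -37.7 to -10.5. Wild-type P4 replicate 2 also stood apart from the other P4 libraries in the genes of rods and dividing cells, as given below, and in 10 markers of bipolar cells (727 CPM against 319 to 407), among them Grm6, their glutamate receptor, at 57.4 CPM against 0 to 0.461. The 3 wild-type P8 libraries also differed from each other. Replicate 1 had the lowest level of rod genes at P8, as given below. Replicate 3 was at the level of the Brn3b-Kir2.1 libraries in rod genes and differed from the other 2 in markers of bipolar cells (2551 CPM against 965 and 1512), amacrine cells (1693 against 4130 and 2982) and ganglion cells (146 against 304 and 388), and in those of lens (43.4 against 9.53 and 11). Brn3b-Kir2.1 P8 replicate 2 stood apart in having 31325 genes with at least 1 count, against 22609 to 24591 in the other 10 libraries. Values without these libraries are given beside the member calls they changed, and as ranges for members whose direction turned. Markers of other retinal cells were present in every library: those of amacrine cells summed to 1395 to 4130 CPM, of bipolar cells to 319 to 2551 and of Mueller glia to 1019 to 2101.

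Levels of the members are TMM-scaled CPM (counts divided by the scaled depth of the library) per library, in the order of the replicate numbers. The summed level of the 9 genes was 305 and 435 CPM in wild type at P4, 340, 483 and 445 in Brn3b-Kir2.1 at P4, 510, 712 and 332 in wild type at P8, and 480, 613 and 482 in Brn3b-Kir2.1 at P8. The sum was therefore of the same order at both ages, and the lowest wild-type P8 library lay below 4 of the 5 P4 libraries.

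**Figure D1:**
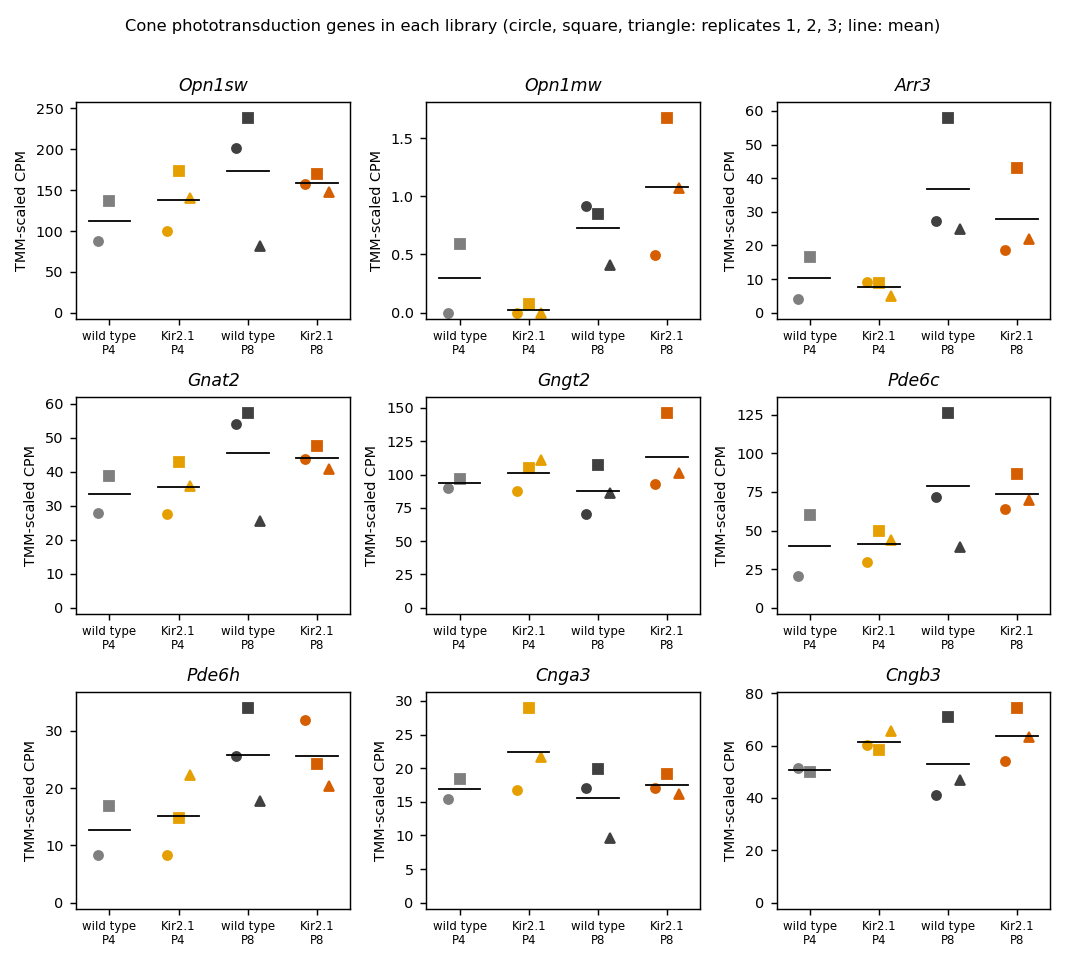
TMM-scaled CPM (vertical axes, linear, a scale for each gene) of the 9 cone phototransduction genes in the 11 libraries, by group. Circle, square and triangle are replicates 1, 2 and 3, and lines are group means. Every P8 library lies above every P4 library for Arr3, whereas Gngt2, Cnga3 and Cngb3 overlap between the ages.

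From P4 to P8, 2 of the 9 genes, Arr3 and the sparsely counted Opn1mw, were called higher in Brn3b-Kir2.1 retina and none lower (edgeR quasi-likelihood test, Benjamini-Hochberg adjusted p under 0.05 over all genes tested). Of all genes tested, 16.7% were called in this comparison, 7.93% higher and 8.73% lower. In wild type none of the 9 was called, against 4.39% of all genes (0.803% higher and 3.58% lower), and DESeq2 called 1, Arr3 (adjusted p = 0.0103). At an unadjusted p under 0.05 edgeR had 2 of the 9 in wild type, Arr3 and Pde6h, against 19.6% of all genes. In Brn3b-Kir2.1 Opn1mw and Arr3 had one, against 29.7% of all genes. The median log2 difference of the 9 was 0.31 in Brn3b-Kir2.1, where 8 were positive, and 0.63 in wild type, where 7 were positive. The medians over all genes were 0.00 and 0.03. Every P8 library lay above every P4 library for 3 of the 9 in Brn3b-Kir2.1 (Opn1mw, Arr3 and Pde6c), beside 19.4% of all genes, and for 2 of the 9 in wild type (Arr3 and Pde6h), beside 14.2%. Opn1mw passed the filter only through P8 libraries, so its call and its lack of overlap add no support to these counts. The age difference was not called different between the genotypes for any member.

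The short-wavelength opsin Opn1sw had 87.3 and 137 CPM in wild type at P4 and 202, 238 and 81.4 at P8. In Brn3b-Kir2.1 it had 100, 174 and 140 CPM at P4 and 157, 170 and 148 at P8. The gene was thus already well expressed at P4, and wild-type P8 replicate 3 was the lowest of all 11 libraries. The log2 difference between the ages was 0.63 ± 0.37 (SE, edgeR adjusted p = 0.397) in wild type and 0.20 ± 0.32 (edgeR adjusted p = 0.748) in Brn3b-Kir2.1, neither past the threshold. Without wild-type P8 replicate 3 the wild-type difference was 0.97 ± 0.24 (edgeR adjusted p = 0.045), and without wild-type P8 replicate 2 it was 0.33. With no filter on low counts and all libraries kept the wild-type difference was also called (0.63, edgeR adjusted p = 0.00357). Opn1sw (ENSMUSG00000058831) is protein-coding, at chr6:29376671-29388468 on the minus strand. Its exons share 397 bases with Calu on the other strand, which had 93.4 to 133 CPM, and the strand setting of the counting is not given in the sources used here, so reads from those bases cannot be told apart.

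The medium-wavelength opsin Opn1mw was close to the detection limit at P4. It had 0 and 7 counts in wild type and 0, 1 and 0 counts in Brn3b-Kir2.1 at P4, then 10, 10 and 5 counts in wild type and 6, 16 and 12 in Brn3b-Kir2.1 at P8. In CPM these were 0 and 0.592, then 0, 0.0768 and 0, then 0.916, 0.851 and 0.407, and 0.497, 1.67 and 1.07. All 6 P8 libraries held at least 5 counts, and the Brn3b-Kir2.1 ages did not overlap, whereas wild-type P4 replicate 2, at 7 counts, lay within the wild-type P8 range. Summed over libraries and scaled for depth, Brn3b-Kir2.1 went from 1 count to 34, a ratio of 36.4 with a 95% counting interval of 6.11 to 1481. The wild-type groups went from 7 counts to 25, a ratio of 2.4 (95% counting interval 1.01 to 6.58). These intervals cover counting error only. The fitted log2 difference was 4.80 ± 1.30 (edgeR adjusted p = 0.026) in Brn3b-Kir2.1, a value that depends on the prior count, and 1.25 ± 1.13 (edgeR adjusted p = 0.61) in wild type. The wild-type value was 6.07 ± 2.33 (edgeR adjusted p = 0.165) without P4 replicate 2 and 0.28 ± 1.23 (edgeR adjusted p = 0.994) without P4 replicate 1. Since Opn1mw passed the filter only through P8 libraries, its age call is no support for a rise. The Brn3b-Kir2.1 call was lost when any of the P4 replicates, or P8 replicate 2 or 3, was left out (edgeR adjusted p from 0.0527 to 0.0921). P8 replicate 2, with 16 of the 34 counts, was also the library with the most genes detected, and its 10 markers of pigment epithelium summed to 31.6 CPM against 4.58 to 7.78 in the other libraries. Their part in the Opn1mw value was not tested. Without it the difference was 4.36 ± 1.41 (edgeR adjusted p = 0.0738). Opn1mw (ENSMUSG00000031394) is protein-coding, at chrX:74127464-74150760 on the plus strand.

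Opn1mw remained a small share of the cone opsin counts at both ages. It was 0.43% of the counts of both opsins in wild-type P4 replicate 2 (95% exact binomial interval 0.173% to 0.884%) and 0.044% in Brn3b-Kir2.1 P4 replicate 2 (0.00111% to 0.245%). The other 3 P4 libraries had no Opn1mw count, which allows shares of up to 0.294%, 0.278% and 0.188% if 3 counts are taken as the limit, and of up to 0.361%, 0.341% and 0.231% by the exact binomial interval. At P8 the share was 0.452%, 0.356% and 0.498% in wild type and 0.315%, 0.973% and 0.718% in Brn3b-Kir2.1. The highest of these, in Brn3b-Kir2.1 replicate 2, had an interval of 0.557% to 1.57%, which overlapped those of the other P8 libraries. Per kilobase of exon the mean share was 0.351% in wild type at P4, 0.024% in Brn3b-Kir2.1 at P4, 0.71% in wild type at P8 and 1.09% in Brn3b-Kir2.1 at P8.

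Gnat2 encodes the alpha subunit of cone transducin, which carries the signal from opsin to the phosphodiesterase. It had 28.0 and 38.8 CPM in wild type at P4, 27.5, 42.8 and 35.9 in Brn3b-Kir2.1 at P4, 54.1, 57.2 and 25.5 in wild type at P8, and 43.7, 47.7 and 40.7 in Brn3b-Kir2.1 at P8. As for Opn1sw, wild-type P8 replicate 3 was the lowest library of all. The log2 difference between the ages was 0.45 ± 0.30 in wild type and 0.31 ± 0.27 in Brn3b-Kir2.1 (edgeR adjusted p = 0.475 and 0.492). Gngt2, the gamma subunit of cone transducin, had 90.1 and 96.8 CPM in wild type and 88.0, 105 and 111 in Brn3b-Kir2.1 at P4. At P8 it had 70.0, 107 and 86.4 CPM in wild type and 92.7, 146 and 101 in Brn3b-Kir2.1. Its ages overlapped in both genotypes, with log2 differences of -0.09 ± 0.21 and 0.16 ± 0.19 (edgeR adjusted p = 0.864 and 0.647). Gnat2 (ENSMUSG00000009108) is at chr3:108092789-108101432 and Gngt2 (ENSMUSG00000038811) at chr11:95837216-95845734, both protein-coding and on the plus strand. Exons of Gngt2 share 234 bases with Abi3 on the other strand, a gene with 4.64 to 20.6 CPM.

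Pde6c encodes the catalytic subunit of the cone phosphodiesterase and Pde6h its inhibitory gamma subunit. Pde6c had 20.4 and 60.1 CPM in wild type at P4 and 72, 126 and 39.5 at P8, and in Brn3b-Kir2.1 it had 29.8, 50 and 43.8 at P4 and 63.7, 86.9 and 69.9 at P8. The ages did not overlap in Brn3b-Kir2.1, and in wild type both libraries that stand apart fell inside the range of the other age. The log2 difference was 0.98 ± 0.47 in wild type and 0.83 ± 0.41 in Brn3b-Kir2.1 (edgeR adjusted p = 0.286 and 0.204). Pde6h had 8.29 and 16.9 CPM in wild type at P4 and 25.5, 33.9 and 17.7 at P8, and in Brn3b-Kir2.1 it had 8.28, 14.7 and 22.3 at P4 and 31.9, 24.2 and 20.4 at P8. Here the wild-type ages did not overlap and the Brn3b-Kir2.1 ages did. The log2 difference was 1.03 ± 0.42 in wild type and 0.76 ± 0.36 in Brn3b-Kir2.1 (edgeR adjusted p = 0.199 and 0.191). Neither subunit passed the threshold in either genotype. Without wild-type P4 replicate 2 the wild-type difference of Pde6c was 1.95 ± 0.53 (edgeR adjusted p = 0.0497) and that of Pde6h 1.63 ± 0.53 (edgeR adjusted p = 0.0958), and without P4 replicate 1 they were 0.40 and 0.60. With no filter on low counts both were called in both genotypes (edgeR adjusted p from 1.19e-05 to 0.00938). Pde6c (ENSMUSG00000024992) lies at chr19:38132781-38183958 and Pde6h (ENSMUSG00000064330) at chr6:136923832-136968865, both protein-coding and on the plus strand. Pde6h shares 136 exonic bases with Arhgdib on the other strand, which had 1.87 to 9.39 CPM and no higher level at P8.

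The subunits of the cyclic GMP-gated channel overlapped between the ages in both genotypes. Cnga3, the pore-forming subunit, had 15.4 and 18.4 CPM in wild type and 16.8, 28.9 and 21.6 in Brn3b-Kir2.1 at P4. At P8 it had 17.1, 19.9 and 9.60 CPM in wild type and 17.1, 19.2 and 16.1 in Brn3b-Kir2.1. Its log2 difference between the ages was -0.12 ± 0.29 in wild type and -0.36 ± 0.26 in Brn3b-Kir2.1 (edgeR adjusted p = 0.869 and 0.402). The wild-type value was 0.01 without P4 replicate 2 and 0.13 without P8 replicate 3, on the other side of 0. Cngb3, the modulatory subunit, had 51.3 and 49.9 CPM in wild type and 60.1, 58.3 and 65.6 in Brn3b-Kir2.1 at P4. At P8 it had 41.0, 70.8 and 46.9 CPM in wild type and 54.1, 74.2 and 63.1 in Brn3b-Kir2.1. The log2 difference was 0.06 ± 0.21 in wild type and 0.06 ± 0.19 in Brn3b-Kir2.1 (edgeR adjusted p = 0.91 and 0.887). Cnga3 (ENSMUSG00000026114) is at chr1:37214434-37263384 and Cngb3 (ENSMUSG00000056494) at chr4:19280850-19510623, both protein-coding and on the plus strand.

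Arr3, cone arrestin, which ends the response of the activated opsin, was the one member whose ages did not overlap in either genotype. It had 4.10 and 16.5 CPM in wild type at P4 and 27.4, 57.8 and 24.8 at P8. In Brn3b-Kir2.1 it had 9.21, 8.83 and 4.99 CPM at P4 and 18.7, 43.0 and 21.8 at P8. All 6 P8 libraries lay above all 5 P4 libraries, which was true of no other member and, in the higher direction, of 4.55% of all genes tested. The log2 difference was 1.85 ± 0.51 in Brn3b-Kir2.1 (edgeR adjusted p = 0.0266) and 1.83 ± 0.58 in wild type (edgeR adjusted p = 0.1). The 2 values differed by less than either standard error, and the wild-type value missed the threshold. Without wild-type P4 replicate 2, the highest P4 library, the wild-type difference was 3.15, and without wild-type P4 replicate 1 it was 1.15. Each of these leaves 1 wild-type library at P4. The Brn3b-Kir2.1 call was lost without any one of the 3 P4 replicates or P8 replicate 2, with log2 differences from 1.40 to 1.97 and edgeR adjusted p from 0.061 to 0.111. Arr3 (ENSMUSG00000060890) is protein-coding, at chrX:100605497-100618493 on the plus strand.

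Leaving out wild-type P4 replicate 2 and wild-type P8 replicate 3 together, an alternative chosen after seeing the data, raised the wild-type count of members called between the ages from 0 to 5 (Opn1sw 1.33, Gnat2, Arr3 3.37, Pde6c 2.28 and Pde6h 1.84 on the log2 scale, edgeR), with 1711 genes called in all. In Brn3b-Kir2.1 it raised the count from 2 to 3, with Pde6c added, while the count over all genes went from 3029 to 3831. Gngt2, Cnga3 and Cngb3 were called in neither genotype under this or any other setting.

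Per kilobase of exon, Gngt2 and Opn1sw were the highest members in all 4 groups and Opn1mw the lowest. In wild type at P4 the means were 49.8 ± 2.51 CPM per kb for Gngt2 and 43.9 ± 13.8 for Opn1sw (SD, n = 2), and Pde6c, next at 13.6 ± 9.45, was separated from both. At P8 in wild type Opn1sw had 67.9 ± 32.1 and Gngt2 46.7 ± 9.83 CPM per kb (SD, n = 3), and neighbours from the first to the sixth place overlapped in range. In Brn3b-Kir2.1 Opn1sw and Gngt2 did not differ beyond their spread at either age, at 54.0 ± 14.5 and 54.1 ± 6.48 CPM per kb at P4 and 62.0 ± 4.29 and 60.3 ± 15.4 at P8 (SD, n = 3). Arr3 moved up this order, from 3.26 ± 0.992 to 11.8 ± 5.61 CPM per kb in Brn3b-Kir2.1 and from 4.37 ± 3.72 to 15.6 ± 7.80 in wild type. Pde6h stood eighth in every group, from 1.61 to 3.28 CPM per kb, on an annotated exon length of 7846 bases, the longest of the 9.

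Rods use a parallel set of proteins, and 8 rod counterparts (Gnat1, Sag, Pde6a, Pde6b, Pde6g, Gngt1, Cnga1 and Cngb1) were set beside the cone genes. All 8 rose from P4 to P8 in Brn3b-Kir2.1, by 2.94 (Pde6g) to 5.41 (Pde6a) on the log2 scale with a median of 3.88 (edgeR adjusted p from 0.0015 to 0.00619). The 9 cone genes had a median of 0.31. Of them Arr3 was called, as was Opn1mw, whose filter favours its call. Cnga1, a subunit of the rod cation channel, was 4.70 ± 0.85 higher on the log2 scale (edgeR adjusted p = 0.00322). In wild type the rod median was 2.36 (1.97 to 2.92), and none of the 8 was called (edgeR adjusted p from 0.0761 to 0.151), although all 8 had an unadjusted p under 0.05. Gnat1 was called by the DESeq2 test (adjusted p = 0.0219), and Gnat1 and Pde6a by edgeR with no filter on low counts and with both wild-type P4 replicate 2 and P8 replicate 3 left out. In the main wild-type fit Gnat1, the transducin subunit of rods, was at 2.92 ± 0.84 (edgeR adjusted p = 0.0761). Pde6a, a catalytic subunit of the rod phosphodiesterase, was at 2.81 ± 0.91 (edgeR adjusted p = 0.109). No other rod gene was followed under other settings in wild type. Without wild-type P4 replicate 2 Pde6a was at 6.36, and without wild-type P4 replicate 1 at 1.87, each with 1 wild-type library left at P4. Without wild-type P8 replicate 1 Gnat1 was at 3.35 and Pde6a at 3.27 (edgeR adjusted p = 0.0135 and 0.0222). Without wild-type P8 replicate 3 Gnat1 was at 1.74. The summed level of the rod genes shows the spread behind this. It was 125 and 708 CPM in wild type at P4, 240, 375 and 260 in Brn3b-Kir2.1 at P4, 473, 1758 and 3391 in wild type at P8, and 3250, 3320 and 3378 in Brn3b-Kir2.1 at P8. Wild-type P8 replicate 3 had the highest rod sum of all libraries and the lowest cone sum of the P8 libraries. Wild-type P4 replicate 2 had the highest rod sum at P4, and its summed level of 10 markers of dividing cells was 932 CPM against 2121 to 2632 in the other P4 libraries and 103 to 147 at P8.

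**Figure D2:**
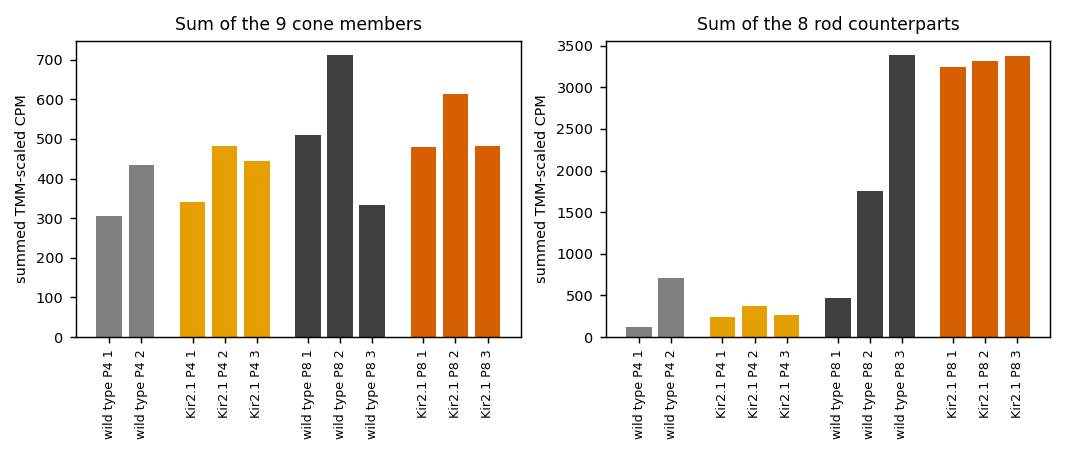
Bars give the summed TMM-scaled CPM of the 9 cone genes (left) and of 8 rod counterparts (right) in each of the 11 libraries, on linear axes from 0. The cone sums stay between 305 and 712 CPM, and the rod sums run from 125 to 3391, with wild-type P8 replicate 3 lowest for cone genes and highest for rod genes among the P8 libraries.

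The ratio of a cone gene to its rod counterpart, per kilobase of exon, was lower at P8 than at P4 in every Brn3b-Kir2.1 library. The ratio of the summed levels of the 7 cone genes other than the opsins to those of the 8 rod genes was 3.44 and 0.886 in wild type at P4, 2.16, 1.69 and 2.38 in Brn3b-Kir2.1 at P4, 1.23, 0.529 and 0.152 in wild type at P8, and 0.19, 0.281 and 0.201 in Brn3b-Kir2.1 at P8. Each of the 8 pairs had lower ratios in every Brn3b-Kir2.1 P8 library than in every Brn3b-Kir2.1 P4 library, including Arr3 against Sag (0.144 to 0.264 at P4 and 0.0567 to 0.126 at P8). In wild type this held for 1 of the 8 pairs, Gngt2 against Gngt1 (3.70 and 16.9 at P4, 0.681 to 3.33 at P8). For Pde6c against Pde6a the ratio was 14.9 to 24.0 in Brn3b-Kir2.1 at P4 and 0.548 to 1.01 at P8. In wild type it was 31.4 and 4.11 at P4 and 5.94, 2.30 and 0.420 at P8, a range that spans the Brn3b-Kir2.1 P8 values. The size of the summed ratio depended on the length used. With no length scaling and with principal transcript lengths, its group mean at P4 was 1.08 and 0.834 in place of 2.16 in wild type, and 0.999 and 0.777 in place of 2.08 in Brn3b-Kir2.1. At P8 it was 0.33 and 0.271 in place of 0.638, and 0.11 and 0.0971 in place of 0.224, below the P4 mean each time. These ratios are descriptions with no test of their own.

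**Figure D3:**
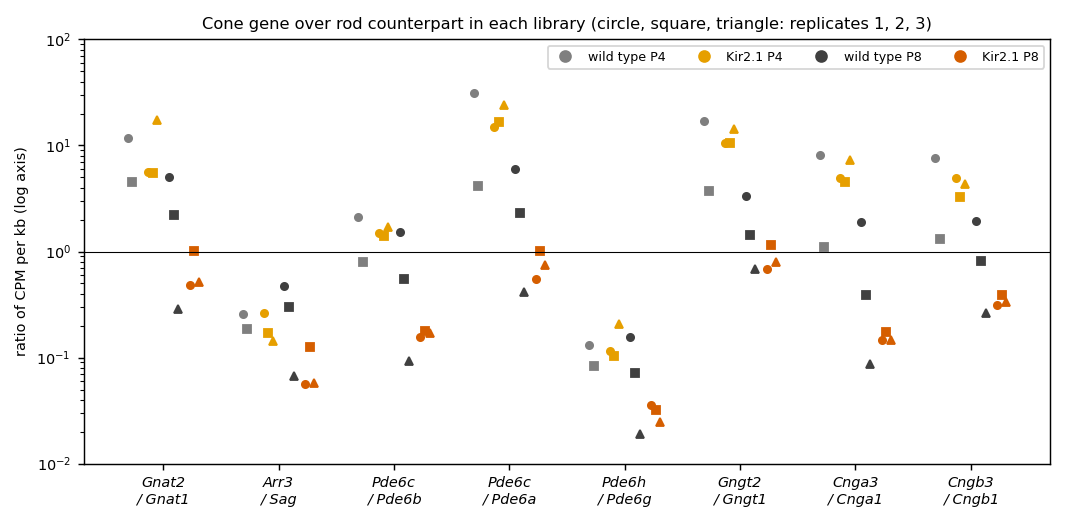
Ratio of each cone gene to its rod counterpart, in CPM per kilobase of exon (log axis), in each library; colours are groups, and circle, square and triangle are replicates 1, 2 and 3. In Brn3b-Kir2.1 the P8 points lie below the P4 points for all 8 pairs, and in wild type they overlap for 7 of the 8.

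Of 13 other genes of the cone light response, most of them also used by rods, 10 rose from P4 to P8 in Brn3b-Kir2.1 and none fell, with a median log2 difference of 2.47 over the list. The increases were 4.13 ± 0.81 for the guanylate cyclase Gucy2f (edgeR adjusted p = 0.00497), 3.55 ± 0.59 for the opsin kinase Grk1 (edgeR adjusted p = 0.00201), 3.41 ± 0.58 for the potassium channel subunit Kcnv2 (edgeR adjusted p = 0.00218) and 3.10 ± 0.56 for phosducin, Pdc (edgeR adjusted p = 0.00331). Gucy2e, Rgs9bp, Rcvrn, Gnb5, Gnb3 and Rgs9 rose by 1.03 to 2.66. Gnb3, the beta subunit that pairs with Gnat2 and Gngt2 in cones, rose by 1.38 ± 0.28 (edgeR adjusted p = 0.00636). Guca1a and Guca1b, the cyclase activators, and Slc24a2, the cone sodium-calcium exchanger, were not called (log2 differences of 0.54, 1.31 and 0.54). In wild type the list had a median of 1.69 with all 13 positive, and 1 gene, Gnb5, passed the test (1.10 ± 0.26, edgeR adjusted p = 0.0338). That call ended in a fit of the 2 wild-type groups alone (1.09, edgeR adjusted p = 0.239) and without wild-type P4 replicate 1 (0.70, edgeR adjusted p = 0.471), P8 replicate 2 (1.10, 0.0822) or P8 replicate 3 (0.91, 0.0671), and the Brn3b-Kir2.1 call of Rgs9 ended without P4 replicate 1 (0.96, 0.0697) or P8 replicate 3 (0.98, 0.0533).

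**Figure D4:**
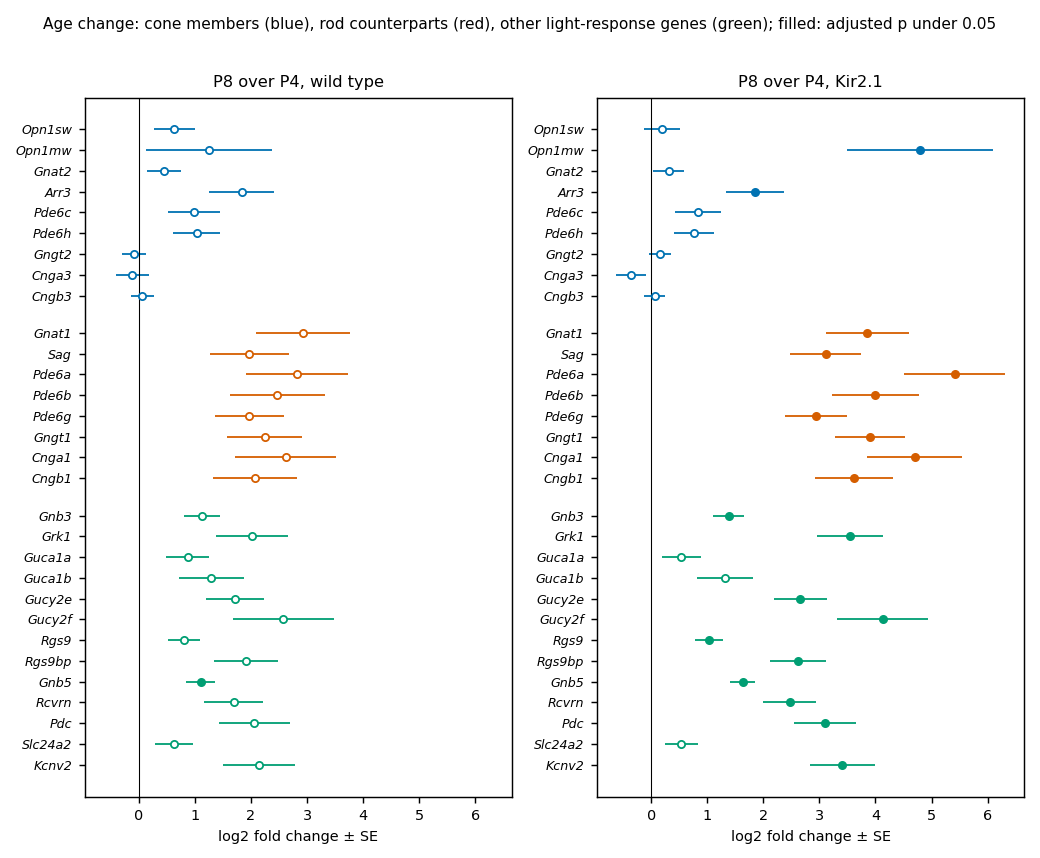
Log2 fold change of P8 over P4 with bars of 1 standard error from the edgeR fit (horizontal axes), in wild type (left) and Brn3b-Kir2.1 (right), for the 9 cone genes (blue), 8 rod counterparts (red) and 13 other genes of the light response (green). Filled points have an adjusted p under 0.05: in Brn3b-Kir2.1 these are 2 cone genes (Arr3, and Opn1mw, whose filter favours its call), all 8 rod counterparts and 10 of the 13 others, and in wild type Gnb5 alone.

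Transcription factors of cone and photoreceptor fate were followed as a list of 9. In Brn3b-Kir2.1, 5 rose from P4 to P8: Nrl (2.88), which directs rod fate, Nr2e3 (2.63), which represses cone genes in rods, Crx (1.77), Neurod1 (1.18) and Thrb (0.81 ± 0.16, edgeR adjusted p = 0.00456), the thyroid hormone receptor required for medium-wavelength opsin. Sall3, which takes part in cone and horizontal cell differentiation, fell by 0.86 on the log2 scale (SE 0.22, edgeR adjusted p = 0.0187). Rxrg, the partner of the thyroid hormone receptor that restrains short-wavelength opsin, had -0.56 ± 0.25 (edgeR adjusted p = 0.153), and Otx2 and Rorb had 0.87 and -0.30 without passing the test. In wild type none of the 9 was called, and 6 of them had an unadjusted p under 0.05. The largest wild-type values were 2.16 ± 0.71 for Nrl (edgeR adjusted p = 0.111) and 2.06 ± 0.80 for Nr2e3 (edgeR adjusted p = 0.179). These were the only regulators followed under other settings in wild type. Without wild-type P8 replicate 1 they were at 2.62 and 2.56 and passed the test (edgeR adjusted p = 0.00852 and 0.0136). Without wild-type P8 replicate 3 they were at 1.06 and 0.97. Both also passed with no filter on low counts, and Nrl with wild-type P4 replicate 2 and P8 replicate 3 left out (1.96, edgeR adjusted p = 0.0387). The Brn3b-Kir2.1 calls of Nr2e3, Sall3, Crx and Neurod1 each ended with at least 1 library left out, Nr2e3 with any of the 6 (2.46 to 2.92, edgeR adjusted p from 0.0501 to 0.102), Sall3 with P4 replicate 3 or any P8 replicate (-0.89 to -0.75, 0.0552 to 0.0755), and Crx (1.56 and 1.83, 0.0814 and 0.0501) and Neurod1 (1.12 and 1.13, 0.0588 and 0.0506) with P4 replicate 1 or 3. Thrb had 40.7 and 49.1 CPM at P4 and 39.3 to 52.3 at P8 in wild type, and 37.2 to 39.9 at P4 and 60.7 to 83.0 at P8 in Brn3b-Kir2.1.

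Between Brn3b-Kir2.1 and wild type at P4, none of the 9 cone genes passed the test, and neither did any of the 18188 genes (0% called by edgeR; 7.22% had an unadjusted p under 0.05, none of them a member; DESeq2 called 34 genes and no member). Of the 9, 7 had higher and 2 lower means in Brn3b-Kir2.1 than in wild type, with a median log2 difference of 0.12 beside 0.01 over all genes. Cngb3 was the member whose groups did not overlap (49.9 and 51.3 CPM against 58.3 to 65.6), with a log2 difference of 0.28 ± 0.21 (edgeR adjusted p = 0.778), and 26.7% of all genes had groups that did not overlap. Cnga3 had 0.41 ± 0.30, Opn1sw 0.30 ± 0.37, Pde6h 0.26 ± 0.42, Gngt2 0.12 ± 0.21, Gnat2 0.09 ± 0.30 and Pde6c 0.03 ± 0.46 (edgeR adjusted p from 0.773 to 0.993). Arr3 had -0.42 ± 0.56 (edgeR adjusted p = 0.875) and Opn1mw -2.99 ± 1.50 (edgeR adjusted p = 0.704). The Opn1mw value compares 1 count with 7, all 7 of them in wild-type P4 replicate 2, a depth-scaled ratio of 0.0954 with a counting interval of 0.00212 to 0.743. Without that library Opn1mw was at 1.83 and Arr3 at 0.90, both turned to the positive side, and without wild-type P4 replicate 1 Pde6c was at -0.55 and Pde6h at -0.17. Gnat2 was at -0.14 without replicate 1. The directions of these 5 members at P4 thus depended on which libraries were kept, of either genotype. With 1 library left out, 9 of the 45 member values turned. Opn1sw, Gngt2, Cnga3 and Cngb3 stayed positive with any 1 library left out (0.01 to 0.66).

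At P8 the outcome was again 0 of 9 members, beside 0% of all genes by edgeR (6.82% had an unadjusted p under 0.05, none of them a member; DESeq2 called 3 genes and no member). The groups overlapped for every member, and 10.6% of all genes had groups that did not. Of the 9, 4 had higher and 5 lower means in Brn3b-Kir2.1, with a median log2 difference of -0.01 beside 0.00 over all genes. Gngt2 had 0.37 ± 0.19, Cngb3 0.27 ± 0.19 and Cnga3 0.17 ± 0.26 (edgeR adjusted p = 0.699, 0.736 and 0.889). Opn1mw had 0.56 ± 0.91 (edgeR adjusted p = 0.895), from 34 counts against 25 and a depth-scaled ratio of 1.45 with a counting interval of 0.838 to 2.53. Opn1sw, Gnat2, Pde6c and Pde6h had -0.13 ± 0.32, -0.05 ± 0.27, -0.11 ± 0.41 and -0.01 ± 0.36, and Arr3 had -0.40 ± 0.47 (edgeR adjusted p from 0.838 to 0.997). Without wild-type P8 replicate 3, Opn1sw was at -0.47 ± 0.22 (edgeR adjusted p = 0.257), and Pde6c, Gnat2 and Cnga3 at -0.43, -0.34 and -0.08. Without wild-type P8 replicate 2 the direction turned the other way, with Opn1sw at 0.17, Pde6c at 0.40, Gnat2 at 0.15, Arr3 at 0.09 and Pde6h at 0.24 (edgeR adjusted p from 0.901 to 0.985). The change in the Kir2.1 difference from P4 to P8 ran from -0.43 (Opn1sw) to 3.55 ± 1.75 (Opn1mw), with an edgeR adjusted p of 1 for all 9. No gene was called there (0%), and 3.09% of all genes, none of them a member, had an unadjusted p under 0.05. At P4 and at P8 the members other than Opn1mw had standard errors of 0.19 to 0.56. Genotype differences of the size seen at these ages could thus not be resolved. A p above the threshold does not show that the genotypes are alike.

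**Figure D5:**
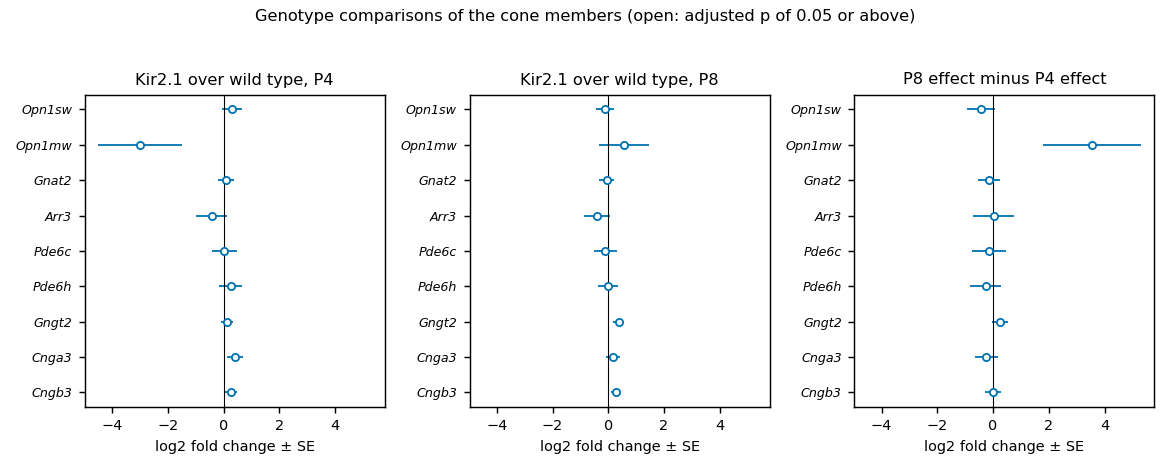
Log2 fold change of Brn3b-Kir2.1 over wild type for each of the 9 genes at P4 (left) and at P8 (centre), and the P8 value minus the P4 value (right), with bars of 1 standard error from the edgeR fit. Every point is open, an adjusted p of 0.05 or above, and the widest bars belong to Opn1mw (0.91 to 1.75).

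The other lists had no called gene between the genotypes either (edgeR), and at an unadjusted p under 0.05 there was 1 regulator at each age and no gene of the other 2 lists. Only the 2 genes of each list with the largest absolute fold change in a comparison were followed under other settings. Of these, with no filter on low counts, Pde6a, Cnga1, Grk1 and Crx were called at P4. At P8 Cnga1, Cngb1, Gucy2f, Kcnv2, Nrl and Nr2e3 were called, and in the difference between the ages Pde6a, Cnga1, Grk1 and Gucy2f. Over all genes edgeR called 339 and 447 at P4 and P8 under this setting. At P4 the rod counterparts had a median log2 difference of -0.61, with all 8 lower in Brn3b-Kir2.1, among them Pde6a at -1.73 ± 0.93 (edgeR adjusted p = 0.709) and Cnga1 at -1.11 ± 0.88 (edgeR adjusted p = 0.792). Without wild-type P4 replicate 2 these 2 were at 1.81 and 1.19, on the other side of 0. At P8 the rod counterparts had a median of 0.83 with all 8 higher in Brn3b-Kir2.1, and the 13 other genes of the light response a median of 0.50. The cone genes had a median of -0.01. With both wild-type libraries named above left out, Kcnv2 (1.65) and Cngb1 (1.77) were called higher in Brn3b-Kir2.1 at P8 (edgeR adjusted p = 0.0372 and 0.0427), as was Nrl (edgeR adjusted p = 0.0315), and no cone gene was called. The P8 library left out there has a rod sum (3391 CPM) close to those of Brn3b-Kir2.1 (3250 to 3378). Without wild-type P8 replicate 1 instead, the library with the lowest rod sum at P8 (473 CPM), Kcnv2 was at 0.45, Cngb1 at 0.48 and Nrl at 0.43 (edgeR adjusted p = 1 for each), in place of 0.89, 0.96 and 0.91 with all libraries. The 12 markers of ganglion cells summed to 1639 and 1069 CPM in wild type and 806, 353 and 871 in Brn3b-Kir2.1 at P4, and to 304, 388 and 146 against 263, 175 and 216 at P8. Their part in the members' values was not tested.

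The authors' deposited tables of Brn3b-Kir2.1 against wild type called none of the 9 genes. In the authors' deposited table for P4, 2.27% of 13830 genes had an adjusted p under 0.05, and the lowest adjusted p of a member was 0.77. In the authors' deposited table for P8, 7.27% of 13396 genes did, and the lowest was 0.068 for Opn1sw, at a log2 fold change of -0.46 ± 0.17. The authors' deposited tables gave negative log2 fold changes for 7 of the 9 members at P4, with Gngt2 at -0.00 among them, and for 6 at P8, and no adjusted p for Opn1mw. Which libraries entered those tables is not given in the sources used here.

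Across the 11 libraries, some members followed each other more than others. The Pearson correlation of a member's log2 CPM with the mean profile of the other members was 0.932 for Pde6c, 0.861 for Gnat2, 0.856 for Opn1sw and 0.741 for Pde6h, and 0.635 and 0.633 for Arr3 and Opn1mw. It was 0.442 for Gngt2, 0.432 for Cngb3 and 0.347 for Cnga3, the members with the smallest age differences in wild type. Outside the members, the profiles most like their mean profile, among 15986 genes with a mean of at least 1 CPM, were those of Elmo3 (r = 0.960), Gm13830 (0.921), BX649560.1 (0.911), Kcnab1 (0.906) and Guca1a (0.902), followed by Mmp9 (0.899), Lrit3 (0.884) and Gm26675 (0.877). The rod counterparts had correlations of 0.427 to 0.582 with it. These libraries share group, age and depth, and the correlations are descriptions.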

How the data were processed

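RNA-seq counts per Ensembl gene were deposited by the authors as 1 file per library, as whole numbers with no normalization. Per the submitters' processing notes, the tools were cutadapt 1.18, STAR 2.5.0c, SAMtools 1.9, bedtools 2.26.0, HTSeq 0.6.1 and DESeq2, and the build was mm10 (GRCm38). The notes give no role or order, and annotation and strand setting are not given in the sources used here. Lines that name no gene, among them a line that by its name is a sum, were left out. The authors' deposited tables of Kir2.1 against wild type hold, per the file headers, a mean normalized count (a signal), a log2 fold change, a statistic (a score), and raw and adjusted p-values, and are quoted only as theirs.

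The 9 members and all gene lists were chosen with earlier results of these data known. A gene of the rod list is not reported here. All members are named in every comparison. Of the other lists, genes called are named and, where none was called, up to 4 with the largest absolute fold change. Under other settings all members were followed. Of the other lists only called genes were followed or, where a list had none called, the 2 with the largest absolute fold change. Counts of all 18188 genes passing filterByExpr were fitted with edgeR 4.0.16 in R 4.3.3 (TMM scaling, factors 0.964 to 1.05; quasi-likelihood; 4 group means over 11 libraries; common biological coefficient of variation 0.247), with Benjamini-Hochberg adjustment over every gene tested and a threshold of 0.05. Standard errors given with edgeR values are the absolute log2 fold change divided by the square root of the quasi-likelihood F statistic. The fit was tested on simulated data. Library depth, 9362215 to 12478838 counts, limits genes such as Opn1mw. Levels per kilobase use the union of GENCODE M21 exons, and likeness uses log2 CPM with a prior count of 2. Alternatives used DESeq2 1.42.0 and limma 3.58.1. Promoters are from RefSeq (GRCm38.p6), which held 6 of the 9 members.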

Additional observations from a re-analysis of the deposited data

How the results depend on the processing

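In the edgeR fit of all 11 libraries, none of the 9 cone genes was called between the genotypes at either age or in the difference between the ages, and this count stayed at 0 under every alternative run. The age comparison was less stable. In wild type the count of members called went from 0 to 1 with the DESeq2 test (Arr3), to 4 with no filter on low counts (Opn1sw, Arr3, Pde6c and Pde6h) and to 5 with wild-type P4 replicate 2 and P8 replicate 3 both left out, an alternative chosen after seeing the data. Leaving out wild-type P8 replicate 3 gave 1 (Opn1sw), with 816 genes called in all. Leaving out P8 replicate 1 or 2 gave 0, with 1299 and 536 genes called. Without wild-type P4 replicate 2, which leaves 1 library in that group, Arr3 was at 3.15 and Pde6c at 1.95. In Brn3b-Kir2.1 the count of members went from 2 to 4 with no filter (Pde6c and Pde6h added), with 3661 genes called in all in place of 3029. It went to 1 with a minimum mean of 1 CPM (3098 genes in all), which removes Opn1mw by construction. It ranged from 0 to 2 when 1 library was left out. It was 0 without P4 replicate 1, 2 or 3 (1764, 2169 and 2076 genes in all) or P8 replicate 2 (2012). It was 1 without P8 replicate 3 (1841) and 2 without P8 replicate 1 (2088). A fit of the 2 Brn3b-Kir2.1 groups alone gave 2, Arr3 and Pde6c, of 4264 genes in all, and Opn1mw did not pass its filter. With no filter the standard errors were smaller and edgeR also called 339 and 447 genes between the genotypes at P4 and P8, where the main fit called 0, and 2058 between the ages in wild type in place of 798; the cause was not tested. The DESeq2 test called 34 and 3 genes between the genotypes and 1545 between the ages in wild type, and wild-type P8 replicate 3 left out gave 219 genes between the genotypes at P8.

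The labels do not say that replicate numbers in the titles pair the libraries. Across genes, same-numbered libraries of different groups had correlated deviations of -0.08 to 0.14, and different-numbered ones -0.15 to 0.14. With so few libraries in a group, these values do not show whether the numbers pair libraries. A replicate block raised the wild-type age count from 0 to 1 (Arr3, 2.15, edgeR adjusted p = 0.0139), left 2 in Brn3b-Kir2.1 and 0 between the genotypes, and turned the near-zero values of Pde6h at P8 (0.03 with the block) and of Arr3 in the difference between ages (-0.38 with the block).

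Directions that turned were of values that did not pass the test in the main fit. With no filter on low counts, some rod and light-response genes among them were called, as given above. With voom quality weights these were Gucy2f at P4 (0.16), Cnga3 at P8 (-0.04), Arr3 in the difference between ages (-0.69) and the wild-type age values of Gngt2 (0.05) and Cnga3 (0.06). With wild-type P4 replicate 2 and P8 replicate 3 both left out, the P4 genotype values turned for Opn1mw (1.82), Arr3 (0.90), Grk1 (0.87), Gucy2f (1.87), Pde6a (1.81) and Cnga1 (1.19), Cnga3 turned at P8 (-0.09) and with age in wild type (0.27), and the difference between ages turned for Opn1mw (-1.55), Arr3 (-1.52), Gucy2f (-0.11) and Pde6a (-0.26). Leaving out 1 library at a time, the lowest and highest log2 values of those that turned were, for Kir2.1 against wild type at P4 Gnat2 -0.14 to 0.34, Pde6c -0.55 to 1.01, Pde6h -0.17 to 0.87, Opn1mw -4.80 to 1.83, Arr3 -1.11 to 0.90, Grk1 -1.62 to 0.88, Gucy2f -1.44 to 1.87, Pde6a -2.67 to 1.81 and Cnga1 -1.96 to 1.19. At P8 they were Gnat2 -0.34 to 0.15, Opn1sw -0.47 to 0.17, Arr3 -0.86 to 0.09, Pde6c -0.43 to 0.40, Pde6h -0.22 to 0.24 and Cnga3 -0.08 to 0.39. For the difference between ages they were Gnat2 -0.42 to 0.08, Pde6c -1.12 to 0.44, Pde6h -0.88 to 0.15, Opn1mw -1.27 to 5.36, Arr3 -1.30 to 0.70, Cngb3 -0.17 to 0.26, Gucy2f -0.89 to 2.42, Grk1 -0.19 to 2.30, Pde6a -0.94 to 3.54, Cnga1 -0.23 to 2.99 and Nrl -0.18 to 1.82. For age in wild type they were Cnga3 -0.34 to 0.13, Gngt2 -0.26 to 0.03 and Cngb3 -0.20 to 0.20. For age in Brn3b-Kir2.1 they were Opn1sw -0.01 to 0.40, Gngt2 -0.07 to 0.28 and Cngb3 -0.07 to 0.16. The Opn1mw share of opsin in wild type at P8 was 0.435% with no length scaling and 0.851% with principal transcript lengths, in place of 0.71%. The ratio of cone genes other than the opsins to rod genes was, in the same order, 0.999 and 0.777 in place of 2.08 in Brn3b-Kir2.1 at P4, and 0.11 and 0.0971 in place of 0.224 at P8.

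Depth limits Opn1mw, with at most 16 counts in a library, and groups of 2 or 3 libraries limit the precision of every value.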

Other observations

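The library numbered 2 had the highest summed level of the 9 cone genes in each of the 4 groups, at 435, 483, 712 and 613 CPM against 305, 445, 510 and 482 in the next highest library of its group. The labels do not say that the number marks a shared litter or day.

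Guca1a, a cyclase activator, was the gene of the light response whose profile was closest to that of the cone genes (r = 0.902, place 5 of 15986 genes). Its mean was 15.3 CPM in wild type and 16.5 in Brn3b-Kir2.1 at P4, and 27.9 and 24.1 at P8. Elmo3, a gene with no place in any list here, came first (r = 0.960) at means of 1.95, 2.30, 3.11 and 4.17 CPM in wild type at P4, Brn3b-Kir2.1 at P4, wild type at P8 and Brn3b-Kir2.1 at P8.

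Brn3b-Kir2.1 P8 replicate 2 had the highest levels of Opn1mw, Gngt2 and Cngb3 of all libraries, at 1.67, 146 and 74.2 CPM, and 69.4% of its uniquely placed reads fell in no gene, against 57.0% to 62.4% in the other 10 libraries. Without it the age difference of Gngt2 in Brn3b-Kir2.1 was -0.07.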
